A study of Canis lupus familiaris with 12 samples.

Results

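NR4A1, NR4A2 and NR4A3 and EGR1, EGR2, EGR3 and EGR4 are 2 families of transcription factor genes that lymphocytes switch on when their antigen receptors are engaged. They were described here across 12 RNA-seq libraries of canine peripheral blood mononuclear cells (PBMCs). The 7 genes were listed by name with earlier results of these data known, no measured value entered the rule, and all 7 were found by symbol among the 29822 genes of the deposited tables. The study asked how 5-aminolevulinic acid (ALA), the precursor of heme, acts on PBMCs with and without concanavalin A (ConA), a plant lectin that cross-links glycoproteins on T cells and drives them to divide.

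Blood was drawn from healthy male beagles free of specified pathogens, and the cells were cultured in serum-containing medium for 24 h in 4 groups of 3 libraries. One group was left untreated, another received 1.0 mM ALA, another 0.5 µg/ml ConA, and the last both agents (ConA+ALA). Titles number the PBMCs 1 to 3, and each number recurs in all 4 groups. The labels do not say whether a number is a dog or a culture, so the p-values rest on a spread between libraries that may be technical. All groups shared the medium and the single time of harvest, and early times were not analysed here.

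NR4A genes encode orphan nuclear receptors whose activity is set mainly by how much of them the cell makes, since their pocket for a ligand is largely filled. EGR genes encode zinc finger factors that bind GC-rich DNA in promoters. Both families are immediate early genes: their transcription starts after calcium and kinase signals from a receptor and needs no new protein. In T cells NR4A factors are known for roles in cell death on strong stimulation, tolerance and exhaustion, and EGR2 and EGR3 for restraining activated T cells.

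Exon reads per library ran from 13390692 to 21517099, and levels are given as CPM, normalised read counts relative to library size, which was scaled for library composition with TMM. The libraries numbered 1 stood apart from the other numbers: mitochondrially encoded genes took 3.59 to 4.82% of their exon reads, against 11.8 to 23.3% in the rest, and 52.4 to 54.2% of their exon reads crossed exon junctions, against 36.1 to 43.4%. Same-numbered libraries deviated from their group means together in every one of 18 pairs (correlation 0.376 to 0.748), so a fit blocked on the number is given where it changed a call of a member or a count of a gene list. Markers of T cells, B cells and monocytes were present in all 12 libraries. The summed level of 6 matched neutrophil markers ran from 93.9 to 896 CPM in the other libraries and reached 2333 and 2401 CPM in the ALA and ConA+ALA libraries numbered 3. Of the 5 tested neutrophil markers, 2 had a log2 difference above 0 for ALA against untreated (median -0.06). The sum therefore does not stand for each marker. The ConA+ALA library numbered 3 was the highest of its group for NR4A1 and NR4A3 and for no EGR gene, and the ALA library numbered 3 was highest for no member. The part of these markers in the members' levels was not tested. Scaling by library size alone lowered the median log2 fold change of all genes by -0.26 for ConA against untreated and by -0.15 for ConA+ALA against ALA. Under that scaling 558 of 1499 called genes rose with ConA, against 1326 of 2471 under TMM.

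ConA raised NR4A1, NR4A3, EGR2 and EGR4, while NR4A2, EGR1 and EGR3 did not pass the test. A gene passed when its adjusted p was under 0.05 in edgeR's quasi-likelihood test on exon reads, with Benjamini-Hochberg adjustment over 13358 genes. That made 4 of 7 members risen and none fallen, where 9.93% of all tested genes rose and 18.5% changed in either direction. Every member was tested, and the members' median log2 fold change was 1.72, against -0.05 for all genes. EGR4 had 0 exon reads in every library without ConA. The filter for genes with few reads thus kept EGR4 only through libraries with ConA. Its direction was fixed in advance, here and in the counts of groups that do not overlap. The called members other than EGR4 were NR4A1, NR4A3 and EGR2. ConA libraries lay wholly above untreated libraries for 5 of 7 members (17.3% of all genes), the 4 called genes and EGR3. With the number as a block 5 of 7 rose, EGR3 being the addition, against 21.3% of all genes.

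**Figure D1:**
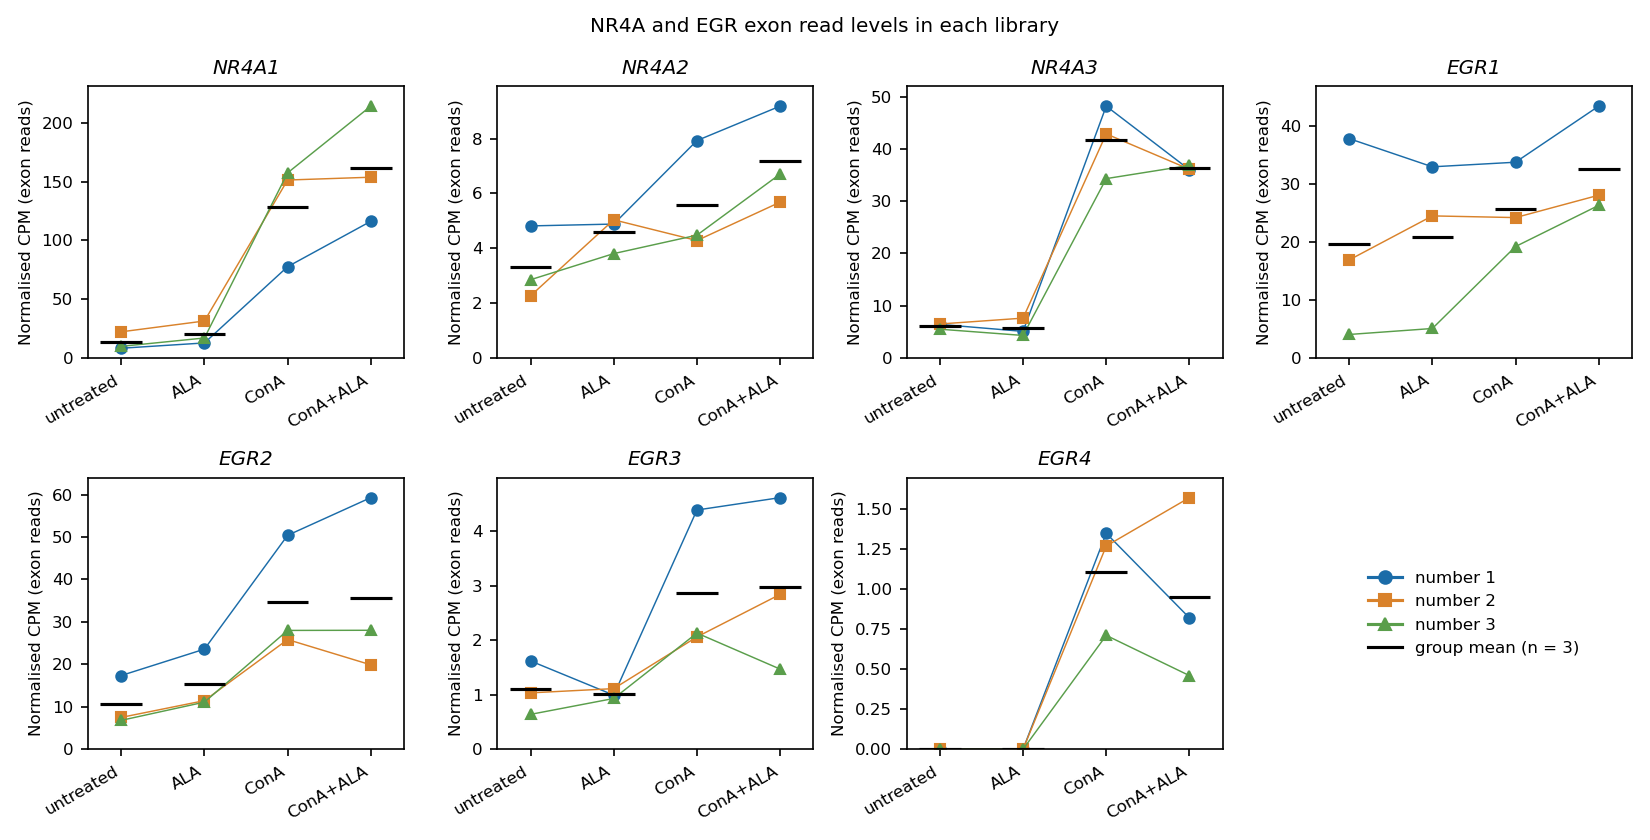
Normalised exon read level (CPM, linear axis from 0) of each member in the 12 libraries. Points are libraries, lines join libraries with the same number across the 4 groups, and black bars are group means (n = 3). NR4A1, NR4A3 and EGR4 are higher in every ConA and ConA+ALA library than in any library without ConA, and the library numbered 1 is highest for EGR1 and EGR2 in all 4 groups.

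NR4A1 lies on chromosome 27 at 2891053 to 2955655, minus strand (build CanFam3.1), in a model of 16 exons. It encodes the NR4A receptor most used as a reporter of antigen receptor signalling. Its level was 8.10, 22.1 and 9.71 CPM in untreated libraries 1, 2 and 3, and 77.7, 151.6 and 157.7 CPM in the ConA libraries. Each ConA library was thus above each untreated one, by 6.85- to 16.2-fold within a number. The log2 fold change was 3.28 ± 0.48 (SE), a 9.71-fold rise (95% interval 5.05 to 18.6; edgeR adjusted p = 0.00111), and it was 2.99 ± 0.40 with library sizes alone.

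NR4A3, on chromosome 11 at 56812804 to 56847689, plus strand, encodes the remaining receptor of the family, whose loss together with NR4A1 is known to alter T cell exhaustion. Untreated libraries had 6.39, 6.47 and 5.47 CPM, and ConA libraries 48.2, 42.9 and 34.3 CPM. The groups did not overlap, and within numbers the ratio stayed between 6.28 and 7.54. NR4A3 rose by 2.77 ± 0.25 on the log2 scale (edgeR adjusted p = 0.000138), with the smallest standard error of the 7 members. That evenness rests on the TMM scale: deposited TPM (transcript levels scaled to exon length and library total by the authors) were 31.2, 14.23 and 14.01 in the same ConA libraries.

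NR4A2, on chromosome 36 at 2547421 to 2552780, minus strand, encodes the receptor best known from dopamine neurons and from regulatory T cells. It had 4.82, 2.26 and 2.85 CPM in untreated and 7.93, 4.28 and 4.48 CPM in ConA libraries. The ConA value was the higher within every number, but the groups overlapped, since untreated library 1 exceeded ConA libraries 2 and 3. The log2 difference of 0.75 ± 0.38 did not pass (edgeR adjusted p = 0.204, and 0.0512 with the block).

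EGR2, on chromosome 4 at 14706600 to 14709497, minus strand, encodes a factor known from T cell anergy and from myelin formation. Its level was 17.4, 7.50 and 6.81 CPM in untreated and 50.4, 25.8 and 27.998 CPM in ConA libraries. The lowest ConA library was above the highest untreated one. EGR2 rose by 1.72 ± 0.50 on the log2 scale, 3.28-fold (edgeR adjusted p = 0.0345), and by 1.78 ± 0.17 with the block (1.91e-06). This call depended on the settings: it was lost with library sizes alone (adjusted p = 0.233), with intron reads added (0.153), on junction reads (0.106) and with no filter (0.0538). It was also lost without untreated library 2 (0.118) or 3 (0.106), without ConA library 1 (0.111) or 3 (0.0531), and without all libraries numbered 2 (0.201) or 3 (0.194). With the block kept it stood without each number in turn, at adjusted p of 6.40e-05 to 0.000269.

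EGR4, on chromosome 17 at 49575466 to 49578251, plus strand, encodes the family member that works with NFAT factors at cytokine promoters. It had 0 exon reads in all 3 untreated libraries and 35, 16 and 10 reads in the ConA libraries, which is 1.35, 1.27 and 0.71 CPM. Every ConA library was therefore above every untreated one. Against a floor of 3 reads over the untreated group, its 61 pooled ConA reads were 21.2-fold higher, with no allowance for the error of those 61. The edgeR test, which does not use the floor, gave EGR4 an adjusted p of 0.00831. The call was lost without the libraries numbered 1 (0.0581) or 2 (0.117). EGR4 had 0 reads across exon junctions in all 12 libraries. Its intron read density per base was 103, 74.8 and 239% of its exon density in ConA libraries 1, 2 and 3, from few reads. These reads therefore do not show spliced EGR4 RNA.

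EGR3, on chromosome 25 at 34591863 to 34594346, plus strand, encodes a close relative of EGR2 with a shared role in restraining T cells. It had 1.62, 1.03 and 0.64 CPM in untreated and 4.39, 2.06 and 2.13 CPM in ConA libraries. The groups did not overlap, yet the log2 difference of 1.38 ± 0.56 did not pass (edgeR adjusted p = 0.109). With the block EGR3 passed, at 1.39 ± 0.46 (adjusted p = 0.0236), and it no longer did so without number 1 (0.217), 2 (0.0646) or 3 (0.0753). Its counts were low, from 11 to 36 reads in untreated and 26 to 114 in ConA libraries.

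EGR1, on chromosome 11 at 26046228 to 26048575, plus strand, encodes the family's most widely induced member, which the ERK kinases switch on through serum response factor. Its untreated level was 37.8, 16.9 and 4.01 CPM, and its ConA level 33.7, 24.2 and 19.2 CPM. The untreated libraries spanned 9.42-fold, a spread larger than that of 97.0% of genes, and enclosed all 3 ConA libraries. ConA against untreated was -0.16, 0.52 and 2.26 on the log2 scale in numbers 1, 2 and 3. The fitted difference was 0.39 ± 0.71 (edgeR adjusted p = 0.756), was 1.30 without untreated library 1, -0.09 without untreated library 3 and 0.03 with library sizes alone. Without ConA library 1 it was 0.14.

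The same contrast in the presence of ALA used 6 other libraries. In ALA and ConA+ALA libraries 3 of 7 members were called, NR4A1, NR4A3 and EGR4, all risen, where 5.09% of all genes rose. EGR4 entered this test only through libraries with ConA, so it could be called only as risen. Its place in the counts below was fixed in the same way. With the block 5 of 7 rose, EGR2 and EGR3 being the additions (15.8% of all genes). ConA+ALA libraries lay wholly above ALA libraries for 5 of 7 members (14.9% of all genes), and 7 of 7 were higher within every number (28.2% of all genes). The members' median log2 fold change was 1.56, against -0.07 for all genes.

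NR4A1 was at 12.6, 31.3 and 16.8 CPM with ALA and at 116, 154 and 215 CPM with ConA+ALA. Its rise was 2.996 ± 0.474 on the log2 scale (edgeR adjusted p = 0.00378). NR4A3 was at 5.05, 7.59 and 4.27 CPM with ALA and at 36.0, 36.1 and 36.9 CPM with ConA+ALA, a rise of 2.69 ± 0.25 (edgeR adjusted p = 0.000333). For both receptors the groups were far apart, with the lowest ConA+ALA library above the highest ALA library. Without number 2 no gene of the whole table was called, and the adjusted p of NR4A1 was 0.0832 and of NR4A3 0.0780. Without number 3 that of NR4A1 was 0.102. With the block kept, both passed without each number in turn.

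EGR4 had 0 exon reads in the ALA libraries and 19, 21 and 5 reads in the ConA+ALA libraries. Pooled and set against the same floor, that was 16.6-fold higher, again with no allowance for the error of the higher count. edgeR's test gave EGR4 an adjusted p of 0.0195. Its call rested on few reads and was lost without ALA library 1 (0.0688) or 2 (0.0586), ConA+ALA library 1 (0.0521) or 2 (0.0649), or any number (0.0996, 0.258 and 0.0941 without 1, 2 and 3).

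EGR2 was at 23.6, 11.5 and 11.1 CPM with ALA and at 59.3, 19.9 and 28.03 CPM with ConA+ALA. The groups overlapped because ALA library 1 exceeded ConA+ALA library 2. The log2 difference of 1.21 ± 0.50 did not pass (edgeR adjusted p = 0.166), whereas the blocked value of 1.17 ± 0.17 did (0.000134). Without all libraries numbered 1 the unblocked value was 1.10, with an adjusted p of 0.0371.

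EGR3 was at 0.99, 1.11 and 0.93 CPM with ALA and at 4.62, 2.84 and 1.47 CPM with ConA+ALA. The groups did not overlap. The difference of 1.56 ± 0.56 did not pass without the block (edgeR adjusted p = 0.116) and did with it (1.44 ± 0.47, 0.0301), but not without number 1 (0.417) or 2 (0.114). NR4A2, at 4.88, 5.04 and 3.80 CPM with ALA and 9.19, 5.68 and 6.71 CPM with ConA+ALA, differed by 0.65 ± 0.38 (edgeR adjusted p = 0.343). Its groups did not overlap. EGR1, at 32.9, 24.5 and 5.05 CPM with ALA and 43.4, 28.04 and 26.3 CPM with ConA+ALA, differed by 0.64 ± 0.71 (edgeR adjusted p = 0.660). ALA library 1 was above ConA+ALA libraries 2 and 3, so the groups of EGR1 overlapped.

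ALA itself moved no member past the test. Against untreated, 0 of 7 members and 0 of 13358 genes were called by edgeR. Without the block no member had an unadjusted p under 0.05, while 155 genes did. With it EGR2 (0.58 ± 0.17, unadjusted p = 0.00469, adjusted p = 0.530) and NR4A1 (0.62 ± 0.27, unadjusted p = 0.0452, adjusted p = 0.787) did, as did 837 genes in that edgeR fit. The other tests called no member either. Over all genes DESeq2 called 4 (0.0299%), limma-voom 0 and the blocked model 6 (0.0449%). NR4A1 differed by 0.61 (95% interval -0.27 to 1.48), EGR2 by 0.54 (-0.43 to 1.51) and NR4A2 by 0.46 (-0.29 to 1.22). These 3 genes were higher with ALA within every number, which 14.8% of all genes were. NR4A3 differed by -0.12 (-0.58 to 0.35), EGR1 by 0.09 (-1.29 to 1.48) and EGR3 by -0.12 (-1.22 to 0.98), and EGR4 had 0 reads in both groups, which allows up to 0.0547 CPM in the untreated and 0.0573 CPM in the ALA group. Blocked intervals were narrower, at 0.24 to 0.92 for EGR2, 0.09 to 1.16 for NR4A1, -0.06 to 1.11 for NR4A2, -0.81 to 1.18 for EGR1 and -0.98 to 0.91 for EGR3. A 2-fold rise, 1 on this scale, thus lay within the blocked intervals of NR4A1, NR4A2 and EGR1. All 95% intervals here were built from the SE with a normal quantile, which makes them narrower than the F-test implies. Ends near 1 or -1, as for EGR3, therefore do not exclude a 2-fold change.

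With ConA present, ALA again moved 0 of 7 members and 0 of 13358 genes past edgeR's test. Here 0 members and 445 genes had an unadjusted p under 0.05. DESeq2 called 49 genes (0.367%), limma-voom 0 and the blocked model 74 (0.554%), none of them a member. The log2 difference of ConA+ALA against ConA was 0.33 (95% interval -0.53 to 1.18) for NR4A1, 0.37 (-0.38 to 1.11) for NR4A2, and -0.20 (-0.65 to 0.25) for NR4A3. EGR1 differed by 0.34 (-1.04 to 1.73), EGR2 by 0.04 (-0.92 to 1.00), EGR3 by 0.06 (-1.0 to 1.12) and EGR4 by -0.22 (-1.82 to 1.38). NR4A1, NR4A2 and EGR1 were higher with ALA within every number, as were 16.2% of all genes. The neutrophil marker sum was 677 to 2401 CPM in the ConA+ALA and 93.9 to 156 CPM in the ConA libraries, and its part in these differences was not tested. All 5 tested neutrophil markers had a log2 difference above 0 here (median 0.90), 0 of them called without the block and 1 with it. The interaction of ConA and ALA, which asks whether the ALA difference depends on ConA, called 0 of 7 members and 0 genes in edgeR, with 0 members and 222 genes at an unadjusted p under 0.05. DESeq2 called 4 genes (0.0299%) and no member, and limma-voom and the blocked model none. In the blocked model EGR2 alone of the members had an unadjusted p under 0.05 (-0.61 ± 0.24, unadjusted p = 0.0226, edgeR adjusted p = 0.611), as did 1004 genes. Without the block the interaction ranged from -0.50 ± 0.69 for EGR2 to 0.25 ± 1.00 for EGR1 and could not be estimated for EGR4. These comparisons share libraries with those of ConA, so their values stand side by side and are not independent.

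**Figure D2:**
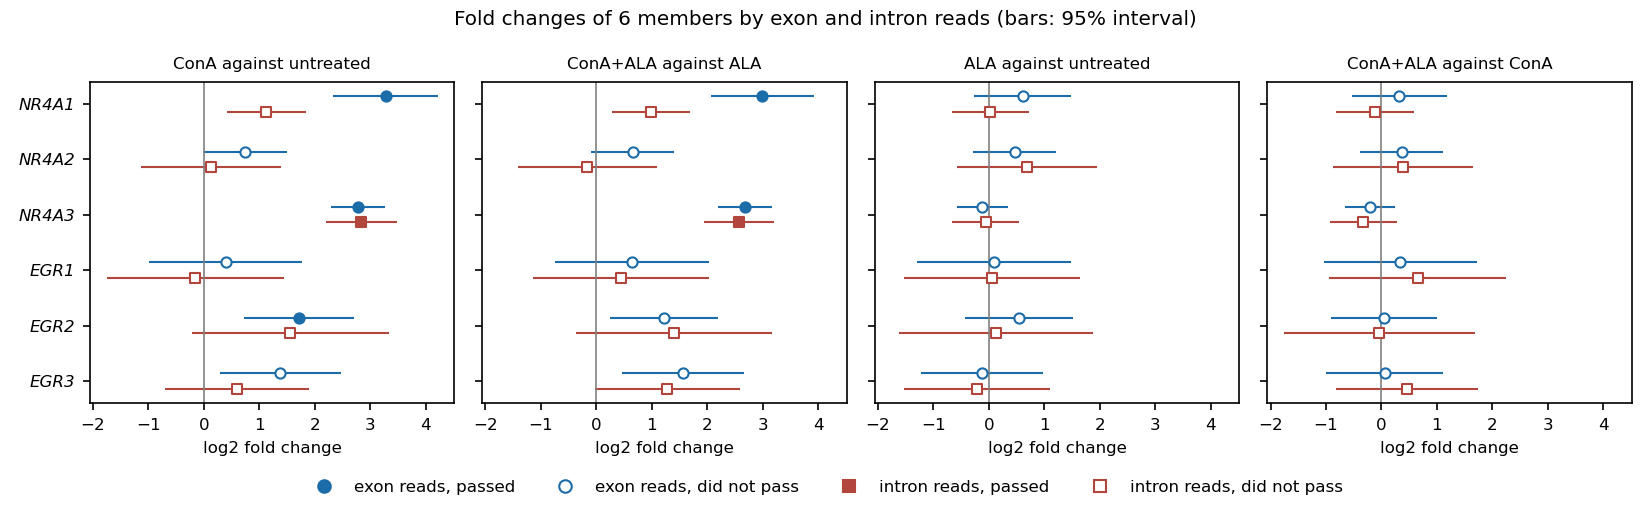
Log2 fold change of 6 members in the 4 comparisons, by exon reads (circles) and intron reads (squares). Bars are 95% intervals from the SE and a normal quantile, which makes them narrower than the F-test implies. Filled symbols had an edgeR adjusted p under 0.05, and EGR4 is left out because it had 0 reads without ConA. NR4A3 is filled for both kinds of read in both ConA comparisons, NR4A1 for exon reads alone, and no symbol is filled in the 2 comparisons of ALA.

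Levels between genes were compared per exon length, by deposited TPM. In untreated cells EGR1 had the highest mean, 24.7 ± 26.7 TPM (SD, n = 3), followed by EGR2 (13.7 ± 11.6), NR4A1 (5.74 ± 2.69), NR4A3 (3.76 ± 1.29), NR4A2 (3.03 ± 2.11) and EGR3 (1.81 ± 1.30), with EGR4 at 0. All neighbours in that order overlapped except EGR3 and EGR4. In ConA cells the order was NR4A1 (41.2 ± 6.10 TPM), EGR2 (33.7 ± 25.3), EGR1 (22.4 ± 14.3), NR4A3 (19.8 ± 9.85), NR4A2 (3.91 ± 2.85), EGR3 (3.65 ± 2.98) and EGR4 (0.642 ± 0.371). There the first 4 overlapped with their neighbours, NR4A3 lay wholly above NR4A2, and EGR3 above EGR4. ConA+ALA gave the same order as ConA, led by NR4A1 at 54.4 ± 7.98 TPM, and ALA the order of untreated cells with NR4A2 (3.75 ± 1.52) and NR4A3 (3.23 ± 1.21) exchanged. Exon lengths were 1629, 1509 and 1164 bases for EGR1, EGR2 and EGR3 and 2072 to 3874 bases for the other members. Whether the shorter models lack UTRs was not tested, and the order between genes depends on these lengths.

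**Figure D3:**
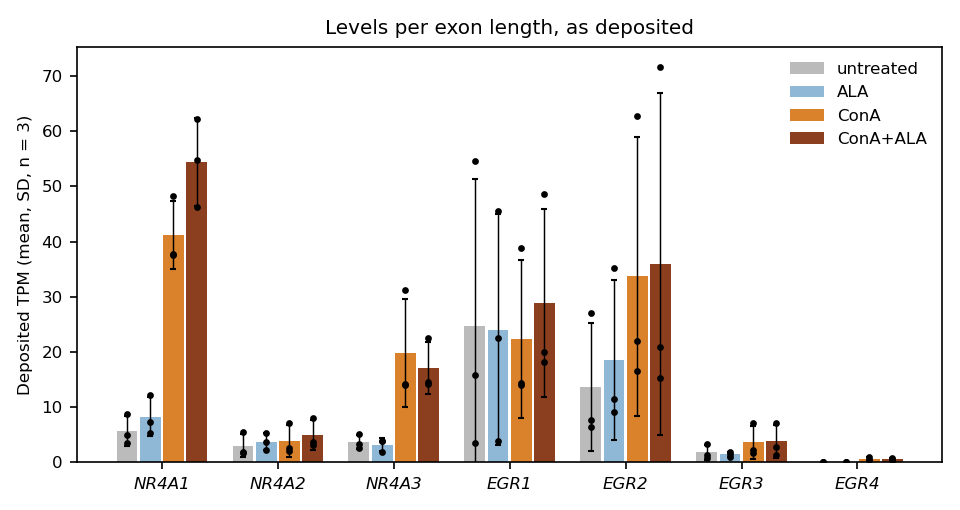
Deposited TPM of each member by group. Bars are means, error bars SD (n = 3, drawn down to 0 at the lowest) and points the libraries. NR4A1 has the highest mean of the 7 members with ConA (41.2 TPM) and ConA+ALA (54.4 TPM), and the SD of EGR1 in untreated cells (26.7) exceeds its mean (24.7).

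Intron reads are richer in RNA that has not yet been spliced, and the same libraries gave them for every member. NR4A3 had 53.8, 41.7 and 45.4 CPM of intron reads in untreated and 501, 262 and 248 CPM in ConA libraries. The ConA libraries lay far above the untreated ones. Its intron rise of 2.84 ± 0.33 on the log2 scale (edgeR adjusted p = 0.000744 over 15305 genes) was next to its exon rise of 2.77. It was the only member of 6 tested to pass by intron reads, where 4.16% of all genes rose. In ALA-treated cells NR4A3 again passed alone (2.57 ± 0.32, adjusted p = 0.00406, against 1.04% of all genes).

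NR4A1 was called by exon reads and not by intron reads. Its intron level was 71.4, 175 and 152 CPM in untreated and 201, 396 and 276 CPM in ConA libraries. The groups did not overlap, and 3 of 7 members lay wholly higher in ConA by intron reads (13.1% of all genes). The intron difference of 1.13 ± 0.36 on the log2 scale did not pass (edgeR adjusted p = 0.0823), but it did in DESeq2 (0.0314) and with the block (1.16 ± 0.14, 6.69e-06). ATG101, a gene of autophagy, lies inside the NR4A1 model at 2931893 to 2935123, and 86.5% of NR4A1 intron reads were unique to it. On those unique reads the difference was 1.00 ± 0.43 (adjusted p = 0.199). With the block 3 of 6 members rose by intron reads, NR4A1, NR4A3 and EGR2 (16.5% of all genes), and the same 3 did so in ALA-treated cells (10.6%).

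In ALA-treated cells the NR4A1 intron difference was 0.99 ± 0.36 (edgeR adjusted p = 0.225, and 6.61e-05 with the block). EGR2 had 20.6, 5.09 and 3.17 CPM of intron reads in untreated and 55.6, 11.1 and 18.4 CPM in ConA libraries, which overlapped through number 1. Its intron difference was 1.56 ± 0.91 (edgeR adjusted p = 0.361), and 1.67 ± 0.27 with the block (0.000123). In ALA-treated cells it was 1.40 ± 0.90 (edgeR adjusted p = 0.585), and 1.56 ± 0.26 with the block (0.000456). NR4A2 (0.13), EGR1 (-0.15) and EGR3 (0.60) did not pass with ConA in either model. EGR4 had 0 intron reads in untreated and 6, 2 and 4 in ConA libraries, 4.44-fold above the floor when pooled, and was too low to be tested. ALA called 0 of 6 members by intron reads with or without ConA, in edgeR, DESeq2 or the blocked model, and none had an unadjusted p under 0.05 in edgeR with or without the block. Over all genes edgeR called 0 for ALA against untreated (141 at an unadjusted p under 0.05) and 2, or 0.0131%, for ConA+ALA against ConA. DESeq2 called 2 (0.0131%) and 38 (0.248%), and the blocked model 5 (0.0327%) and 109 (0.712%).

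Whether exon and intron reads changed to a different extent was tested directly. The exon change of NR4A1 exceeded its intron change by 2.19 ± 0.33 on the log2 scale, with an unadjusted p of 2.68e-05 and an adjusted p of 0.0726 in edgeR over 12052 genes. That did not pass: 0 of 6 members and 0 genes did, while 1 member and 696 genes had an unadjusted p under 0.05. Without each library in turn the NR4A1 difference ran from 1.89 to 2.39 (adjusted p from 0.0837 to 0.303), and it was 2.36 on unique intron reads. For NR4A3 the same difference was 0.01 ± 0.23. Reads over NR4A1 exon junctions, a further measure of spliced RNA, were 48, 51 and 28 in untreated and 645, 266 and 291 in ConA libraries, a rise of 3.25 ± 0.32 (edgeR adjusted p = 0.000202).

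The intron share of NR4A1, its intron reads over its exon and intron reads, was 78.2, 83.4 and 90.2% in untreated and 48.0, 63.7 and 50.9% in ConA libraries. All 3 ConA libraries lay below all untreated ones, and the mean went from 83.9 ± 6.03 to 54.2 ± 8.33% (SD), a difference of -29.7 points. The exact 2-sided permutation p was 0.1, the smallest that 3 against 3 allows, and 0.60 adjusted over 6 members. With ALA the share was 80.2 ± 4.23% and with ConA+ALA 47.7 ± 8.86% (exact permutation p = 0.1, 0.30 adjusted). NR4A3, with a similar share at rest, stayed at 80.2 ± 2.81 and 80.1 ± 1.20% without and with ConA (exact permutation p = 0.9). EGR1 (26.7 and 21.1%) and EGR2 (28.04 and 26.24%) had lower shares throughout, and those of NR4A2 and EGR3 varied widely between libraries. NR4A1 has 60729 bases of intron for 3874 of exon, EGR1 719 for 1629 and EGR2 1389 for 1509, so shares do not rank genes. Read density per base allows for these lengths. In untreated libraries intron over exon density averaged 82.7% for EGR1, 43.0% for EGR2, 37.8% for NR4A1 and 37.5% for NR4A3. With ConA it averaged 61.4, 38.8, 7.89 and 36.6% in the same order. For NR4A2 it averaged 188% in untreated (43.7 to 472% by library) and 110% in ConA libraries. For EGR3 it averaged 87.3 and 38.7%, from few reads. NR4A2 intron reads were thus on average denser than its exon reads, so they need not mark unspliced RNA. The cause was not tested. The median share over all genes ran from 33.5 to 46.5% by library.

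**Figure D4:**
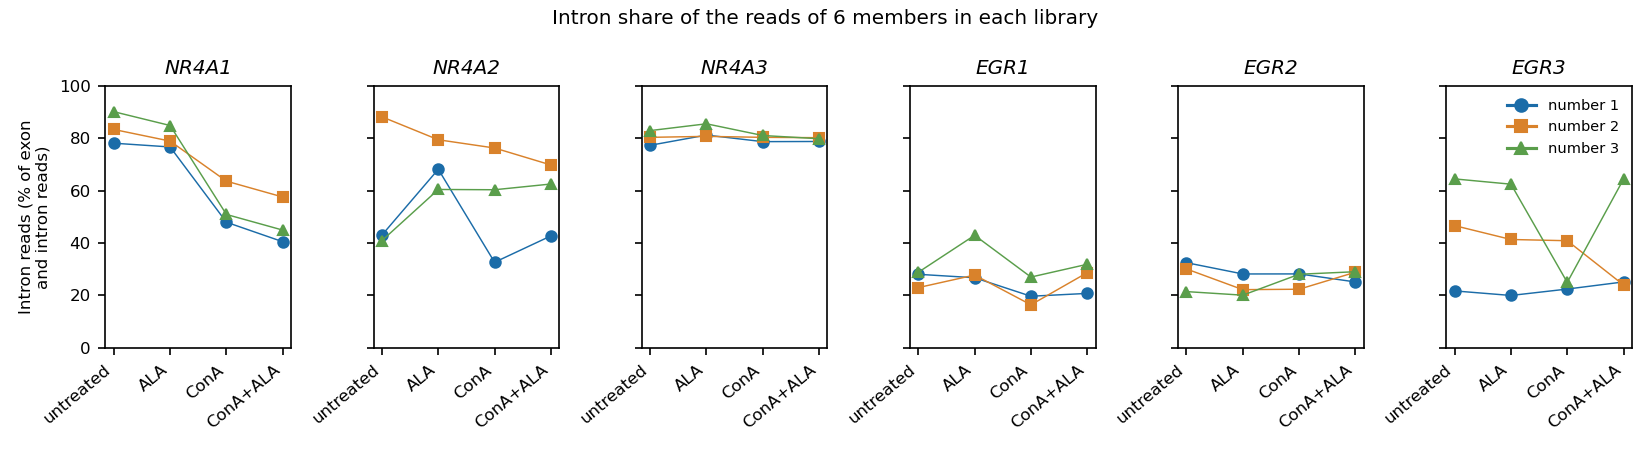
Intron share of the reads (% of exon and intron reads) of 6 members in each of the 12 libraries. Lines join libraries with the same number. NR4A1 goes from 78.2 to 90.2% in untreated to 48.0 to 63.7% in ConA libraries, while NR4A3 stays between 77.4 and 85.6% in all 12.

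Levels also differed between library numbers. EGR1 and EGR2 were highest in the library numbered 1 in all 4 groups, by CPM and by deposited TPM, as were 19.1% of tested genes by CPM. NR4A2 and EGR3 were so in 3 of 4 groups by CPM and in all 4 by TPM. In the blocked model the number term passed for 3 of 7 members, EGR2 (edgeR adjusted p = 1.35e-05), EGR1 (0.0422) and NR4A1 (0.0103), where 48.5% of all genes passed, so the members' share was no larger. Number 2 stood at 0.436 and number 3 at 0.472 of number 1 for EGR2, and at 0.616 and 0.306 for EGR1. NR4A1 had the opposite order, lowest in number 1 in all 4 groups by CPM, but in only 1 group by TPM, so that order depends on the scaling. The spread of EGR1 over numbers was 9.42-fold in untreated, 6.53-fold in ALA, 1.76-fold in ConA and 1.65-fold in ConA+ALA cells, where the median gene spread 1.65- to 1.78-fold. The difference in spread between groups was not tested.

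Marker genes moved with the numbers and with ConA as well. Summed over 9 matched monocyte markers, the level was highest in number 1 in all 4 groups, at 390 to 1594 CPM, against 119 to 507 CPM in the other numbers. Over 13 matched T cell markers it was 1418 to 2153 CPM in number 1 and 821 to 1583 CPM in the rest. From untreated to ConA the monocyte sum went from 472 to 900 CPM down to 119 to 390 CPM, and the T cell sum from 1249 to 2153 down to 821 to 1418 CPM. Of 9 tested monocyte markers 0 rose and 3 fell (median log2 fold change -1.68), and with the block 8 fell. Of 13 tested T cell markers 1 rose and 4 fell (median -1.01), and with the block 9 fell. Among all tested genes 8.57% fell, and 21.2% with the block. No matched marker of either list was at 0 reads. In bulk RNA, fewer cells of a type and less RNA per cell cannot be told apart, and the part of these markers in the members' levels was not tested.

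Of the other marker lists no gene rose with ConA in edgeR's test without the block. The shares of all genes that fell were again 8.57% without and 21.2% with the block. B cell markers had 2 fallen of 9 (7 with the block), neutrophil markers 2 of 5 (4 with the block) and red cell markers 2 of 6 (5 with the block). Dendritic cell markers had 2 fallen of 6 (3 with the block), and platelet markers 0 of 3 in either model. Natural killer cell markers had 2 fallen of 6, and with the block 3 fell and GZMA, a granzyme of cytotoxic cells, rose (0.62 ± 0.22, edgeR adjusted p = 0.0329). GZMA was named after its values were seen. The summed dendritic cell level overlapped between groups, at 204 to 286 CPM untreated and 210 to 302 CPM with ConA. So did the summed B cell level, at 1585 to 2725 CPM untreated and 1440 to 2488 CPM with ConA. Median log2 fold changes of these other lists ran from -1.98 (neutrophil) to -0.44 (dendritic cell). Natural killer and dendritic cell sums were also highest in number 1 in all 4 groups, B cell sums in none.

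Genes of the signals upstream of the members were mostly not called with ConA at this time. Over all genes 9.93% rose and 8.57% fell, and with the block 21.3% rose and 21.2% fell. Of 11 tested calcineurin and NFAT genes 0 rose and 0 fell in edgeR (median log2 fold change -0.32), and 4 fell with the block. This list mixes activators with inhibitors of the pathway. The inhibitor RCAN1 was among the 4 (-0.99 ± 0.37 with the block, edgeR adjusted p = 0.0406). NFATC3, an NFAT factor of T cells, was at 55.7 ± 19.2 CPM untreated and 31.0 ± 7.29 CPM with ConA (-0.84 ± 0.28, edgeR adjusted p = 0.0545). Of 15 genes of the ERK pathway and serum response factor, 1 rose and 2 fell, and 3 fell with the block. ELK3, a partner of serum response factor, rose by 0.97 ± 0.23 (adjusted p = 0.0118). MRTFA, another partner (-1.23 ± 0.32, 0.0205), and RASGRP1, which couples diacylglycerol to RAS in T cells (-0.80 ± 0.21, 0.0207), fell. Of 10 CREB pathway genes 2 fell, the calcium-dependent kinase CAMK4 (-1.15 ± 0.23, 0.00523) and the protein kinase A subunit PRKACB (-1.01 ± 0.31, 0.0413).

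Inhibitors of ERK and related kinases included 3 rises. Of 11 tested MAP kinase phosphatases and Sprouty genes 3 rose and 0 fell (median 0.54), and with the block 3 rose and 1 fell. These were DUSP5 (1.60 ± 0.47, edgeR adjusted p = 0.0330), DUSP4 (1.36 ± 0.39, 0.0308) and DUSP2 (1.13 ± 0.36, 0.0461), nuclear phosphatases of ERK and related kinases. The fall with the block was that of DUSP6, a cytoplasmic ERK phosphatase (-0.87 ± 0.29, edgeR adjusted p = 0.0297), which was named after its values were seen. Of 9 tested partners of EGR and NR4A proteins 0 rose and 1 fell, the coactivator CREBBP (-0.87 ± 0.27, 0.0414), and 5 fell with the block. The retinoid X receptor RXRA, a partner of NR4A1 and NR4A2, was at 20.99 ± 13.02 CPM untreated and 7.84 ± 3.56 CPM with ConA (adjusted p = 0.127).

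Immediate early genes of other families did not move as 1 group. Of 19 tested, 2 rose and 1 fell (median 0.12, against -0.05 for all genes), and with the block 3 rose and 3 fell. FOSL1, a FOS family member of late onset, went from 0.75 ± 0.29 to 5.55 ± 3.49 CPM (2.87 ± 0.61, edgeR adjusted p = 0.00739). ATF3, a stress-induced factor, rose by 1.76 ± 0.51 (0.0316). ZFP36, which destabilises cytokine mRNA, fell from 72.7 ± 13.2 to 33.4 ± 7.69 CPM (-1.12 ± 0.23, 0.00689). IER2 was at 79.6 ± 15.6 and 41.9 ± 7.23 CPM (adjusted p = 0.0573).

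Genes linked to the members in T cells included large rises. Of 14 tested genes linked to EGR2 and EGR3, 4 rose and 2 fell (median 0.01), and with the block 6 rose and 5 fell. LAG3, an inhibitory receptor, went from 8.58 ± 5.08 to 71.0 ± 13.2 CPM (3.05 ± 0.48, edgeR adjusted p = 0.00152). TNFRSF9, a costimulatory receptor, rose by 4.60 ± 0.75 (0.00182), and IL2RA, the inducible alpha chain of the IL-2 receptor, by 3.33 ± 0.36 (0.000272). DGKA, which removes diacylglycerol and is known as a gene of anergy, fell from 254 ± 33.1 to 124 ± 25.04 CPM (-1.03 ± 0.22, 0.00762). Of 10 tested genes linked to NR4A factors in tolerance and exhaustion, 2 rose and 0 fell, and 4 rose with the block. CTLA4 and PDCD1, inhibitory receptors, rose by 1.93 ± 0.24 (0.000570) and 2.06 ± 0.40 (0.00441). IRF4 was at 38.6 ± 46.7 and 131 ± 16.7 CPM (adjusted p = 0.152).

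Across the 12 libraries each member was set beside 11008 other named genes by Pearson correlation of log2 CPM. These values are a description, since all points share the 4 groups and library composition. NR4A3 was most like RANBP1, RRS1 and DNPH1 (0.99 each), and EGR4 most like RRS1, ENO1 and CCT5 (0.99 each). NR4A1 was most like NDUFS4 (0.98), POLR3K (0.98) and ZNF593 (0.97), EGR3 like NOL10, DDX10 and KARS (0.97 each), and EGR2 like NMD3 (0.95), PSMD12 and ABCE1 (0.94 each). NR4A2 was most like THAP5 (0.94), HMGCS1 (0.92) and CYP51A1 (0.91). EGR1 stood beside MGAM (0.93), GEN1 (0.92) and EPAS1 (0.91), none of which passed the ConA test (log2 differences 0.54, 0.38 and 0.63).

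Among the members themselves NR4A3 and EGR4 (0.97) and NR4A1 and NR4A3 (0.93) were most alike, and NR4A1 and EGR1 (0.41) least. EGR4 had 0 exon reads in every library without ConA. Once each library was set against its group mean, which takes out the treatments, the highest values were 0.85 for NR4A2 and EGR2, 0.71 for NR4A2 and EGR3, 0.69 for EGR2 and EGR3 and 0.67 for EGR1 and EGR2. NR4A3 against EGR4 was then 0.22 and against NR4A1 0.26. NR4A1 against EGR2 was -0.67 and against NR4A2 -0.65. These values are on the CPM scale, where NR4A1 was lowest in number 1 in all 4 groups, against 1 group by TPM. Group means leave differences between numbers in place. By CPM EGR1 and EGR2 were highest in number 1 in all 4 groups, and NR4A2 and EGR3 in 3 of 4. The part of the numbers in these correlations was not tested.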

How the data were processed

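Poly(A) RNA was sequenced in pairs of 75 bp reads, as the labels' protocols state. The build is CanFam3.1, per the submitters' processing notes, which also name bcl2fastq. Which aligner and counting tool were used, and whether counting used strand, is not given in the sources used here. The authors deposited whole-number counts of total and unique exon, intron and junction reads per gene and TPM, per the file headers. Counts entered every test, and TPM only ranked genes.

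Groups and numbers came from the titles. edgeR 4.0.16 in R 4.3.3 (TMM, filterByExpr, robust quasi-likelihood F-test, all 12 libraries in 4 group means) tested 13358 genes by exon and 15305 by intron reads, with Benjamini-Hochberg adjustment and a threshold of 0.05. The biological coefficient of variation was 0.422, and 0.217 with the block. Intervals took the SE from the F-test and a normal quantile, so they are narrower than that test implies. Exon against intron response was tested in 1 model with the library as a block. A group at 0 reads was set to a floor of 3 reads, which, like the counts themselves, covers counting error only. Folds over that floor took the count of the other group without its error. Intron shares used exact permutation tests (SciPy 1.17.1).

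The number was treated as pairing the samples because all 18 same-number pairs correlated above 0.1, 36 other pairs ran from -0.498 to 0.206, and 12 of 12 libraries were most like their own number. The titles repeat the PBMC number over the groups but do not state that it pairs the samples.

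Members and the 17 gene lists were chosen with earlier results of these data known. Of 183 list entries 171 matched 1 gene. The text names all members, up to 4 tested genes per list with the smallest unadjusted p for ConA against untreated, and the 3 named genes most correlated with each member. On simulated data the exon test recovered 62.1% of 4-fold and 96.8% of 8-fold changes for ConA against untreated, in 13023 genes. That simulation gave all genes the same spread, with no difference between numbers and no block. Alternatives were DESeq2 1.42.0, limma-voom (limma 3.58.1), DESeq2-type size factors, other filters, unique exon reads, total gene reads, the compared groups alone, mitochondrial genes left out, the block, and each library or number left out. Library sizes alone, junction reads and unique intron reads were added after the data were seen.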

Additional observations from a re-analysis of the deposited data

How the results depend on the processing

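With the number as a block, 5 members rose with ConA (EGR3 added) and 5 in ConA+ALA against ALA (EGR2 and EGR3 added), and by intron reads 3 rose in either comparison (NR4A1 and EGR2 added). The pairing changed no other call of a member. It turned the direction of EGR2 in ConA+ALA against ConA (-0.035), of the intron difference of EGR1 with ConA (0.25) and of NR4A2 in ConA+ALA against ALA (0.014), none of them called. The pairing rests on the data, since the titles repeat the PBMC number over the groups without stating that it pairs the samples.

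Of the members' log2 values under the alternatives, 1378 kept their direction and their side of the threshold, 24 lost a call, 13 gained one and 99 turned, each of the 99 from a value that had not been called. Junction reads called 2 members with ConA (NR4A1 and NR4A3), and DESeq2 called 2 by intron reads (NR4A1 added). With library sizes alone the values that turned were, by exon reads, EGR1 for ALA (-0.011) and the interaction of NR4A2 (0.019) and NR4A3 (4.83e-05). By intron reads they were NR4A1 (-0.074), EGR1 (-0.12) and EGR2 (-0.0011) for ALA, and in exon against intron reads NR4A3 (-0.19) and EGR2 (-0.069). On junction reads EGR1 (-0.16) and NR4A3 (0.31) turned for ALA, NR4A2 (-0.20) for ConA+ALA against ConA, and the interaction of EGR2 (0.059). EGR2 in ConA+ALA against ConA also turned in limma-voom (-0.029) and on total gene reads (-0.0059). The cause of these turns was not tested.

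With 1 library or 1 number left out, the members called ran from 2 to 4 with ConA (2 without number 2) and from 0 to 5 in ConA+ALA against ALA, where 0 was without number 2, 1 without number 3 and 5 without number 3 with the block kept. Where leaving out 1 turned a direction, the range was as follows. With ConA EGR1 ran from -0.089 to 1.34, and by intron reads EGR1 from -0.71 to 1.40 and NR4A2 from -0.32 to 1.21. For ALA against untreated EGR1 ran from -0.41 to 1.01, NR4A3 from -0.39 to 0.044 and EGR3 from -0.39 to 0.31. By intron reads the same comparison gave -0.27 to 0.28 for NR4A1, -0.20 to 0.12 for NR4A3, -0.70 to 1.61 for EGR1, -1.14 to 1.35 for EGR2 and -0.74 to 0.12 for EGR3. For ConA+ALA against ConA EGR2 ran from -0.55 to 0.42, EGR3 from -0.42 to 0.52 and EGR4 from -0.77 to 0.095, and by intron reads NR4A1 from -0.32 to 0.17, NR4A3 from -0.58 to 0.081 and EGR2 from -0.93 to 0.91. The intron difference of NR4A2 in ConA+ALA against ALA ran from -0.56 to 0.15. The interaction ran from -0.85 to 0.18 for NR4A1, -0.47 to 0.26 for NR4A2, -0.31 to 0.18 for NR4A3, -0.66 to 0.75 for EGR1 and -0.34 to 0.65 for EGR3. Exon against intron reads gave -0.74 to 0.88 for NR4A2, -0.14 to 0.19 for NR4A3 and -0.25 to 0.45 for EGR2. Where a number was left out, each group kept 2 libraries.

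Counts over all genes moved with the settings as well. The 2471 genes called with ConA became 5676 with the block, 1499 with library sizes alone, 1614 with the compared groups alone, 55 to 2467 without a library or number and, with the block kept, 3627 to 5418 without a number. The 1085 of ConA+ALA against ALA became 4022, 381, 736, 0 to 1184 and 2096 to 3817. The lowest counts, 55 and 0, were without number 2 and without the block. By intron reads 1117 and 232 became 4980 and 3186 with the block.

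EGR4 gave no value by intron or junction reads. A mean of at least 50 counts removed EGR3 and EGR4, whose few reads limit what could be detected. With 3 libraries a group, the exon test for ConA against untreated recovered 62.1% of simulated 4-fold changes among 13023 genes, so smaller changes could be missed. The simulation gave all genes the same spread and no difference between numbers, so this share is not that of any single member or of the blocked fit.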
